A study of Mus musculus with 72 samples.

Results

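The acyl-CoA thioesterases described here are the 7 genes Acot1, Acot2, Acot3, Acot4, Acot8, Acot12 and Acot13, out of 19938 genes measured in mouse liver. They were chosen by name, and each was read from a probe set annotated to that gene alone, the brightest on average where there were several. In the event each of the 7 had exactly 1. Liver RNA was profiled on 72 Affymetrix Mouse Gene ST arrays from male wild-type mice of 4 inbred strains, 129P2/OlaHsd (129), C57BL/6J (B6J), C57BL/6NTac (B6N) and C3HeB/FeJ (C3H). The mice are labelled as single housed and random fed. Mice of the high-fat diet (HFD) groups ate that diet for 21 days, and the control groups carry no treatment in their labels, whose protocol text speaks of a low-fat diet. The control groups held 8 arrays each, except for 18 in C3H, and the HFD groups held 7 arrays in 129 and B6J and 8 in B6N and C3H. All 129 mice and all HFD mice were 17 weeks old, and controls of the other strains were 15 to 17 weeks old, so age went partly with diet there and its part in the differences was not tested. The labels name no litter, cage or day, and each p-value below therefore reflects the spread among these arrays, part of which may be technical.

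Acyl-CoA thioesterases cut an activated fatty acid, an acyl-CoA, into the free acid and coenzyme A (CoA), and so set how much of each a compartment holds. Acot1 is the cytosolic enzyme of long-chain acyl-CoAs and Acot2 its mitochondrial relative. Acot3, Acot4 and Acot8 act in peroxisomes, where Acot3 takes long-chain acyl-CoAs, Acot4 takes dicarboxylic ones such as succinyl-CoA, and Acot8 has a broad range that includes bile acid CoA esters. Acot12 cleaves acetyl-CoA in the cytosol, and Acot13 (also called Them2) cleaves long-chain acyl-CoAs and is found at mitochondria. In liver, Acot1 to Acot4 are known as genes that respond to fasting and to agonists of PPARα, a nuclear receptor for fatty acids.

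Acot2, Acot1, Acot4 and Acot3 follow each other in that order on chromosome 12, with Acot5 next to Acot3, while Acot8 lies on chromosome 2 and Acot12 and Acot13 lie on chromosome 13. The 250 bases before the start site are shown for the 4 clustered genes, whose HFD values are compared below, and for Acot12, which holds the closest match to a PPAR element. They are from the RefSeq promoter table of build GRCm38.p6, written along the gene's own strand. RefSeq gave a promoter for 6 of the 7 genes, all but Acot13, and 1 start was used for Acot3, which has 2. Capitals mark the best match to AGGTCANAGGTCA, searched on both strands, where at most 3 of its 12 fixed letters differed.
Acot2, chr12:83987611-83987860, plus strand: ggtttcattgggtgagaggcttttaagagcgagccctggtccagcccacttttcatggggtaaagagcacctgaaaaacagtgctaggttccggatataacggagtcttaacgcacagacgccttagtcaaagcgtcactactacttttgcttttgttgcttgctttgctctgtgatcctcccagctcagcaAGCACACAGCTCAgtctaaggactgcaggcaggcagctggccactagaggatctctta
Acot1, chr12:84009252-84009501, plus strand: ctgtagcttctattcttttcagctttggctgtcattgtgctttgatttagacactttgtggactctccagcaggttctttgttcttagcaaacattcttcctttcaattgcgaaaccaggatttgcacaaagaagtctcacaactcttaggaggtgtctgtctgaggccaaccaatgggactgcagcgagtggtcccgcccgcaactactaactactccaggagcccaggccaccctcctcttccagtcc
Acot4, chr12:84038129-84038378, plus strand: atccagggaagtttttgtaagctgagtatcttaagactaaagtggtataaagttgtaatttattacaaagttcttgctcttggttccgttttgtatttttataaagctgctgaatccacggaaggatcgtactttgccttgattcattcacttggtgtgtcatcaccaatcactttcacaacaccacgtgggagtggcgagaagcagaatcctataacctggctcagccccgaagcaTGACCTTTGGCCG
Acot3, chr12:84051894-84052143, plus strand: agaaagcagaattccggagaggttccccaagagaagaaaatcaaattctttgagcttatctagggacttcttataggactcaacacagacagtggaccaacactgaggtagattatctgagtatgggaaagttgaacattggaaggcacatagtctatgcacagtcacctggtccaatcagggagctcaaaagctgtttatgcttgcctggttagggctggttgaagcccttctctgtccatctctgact
Acot12, chr13:91741271-91741520, plus strand: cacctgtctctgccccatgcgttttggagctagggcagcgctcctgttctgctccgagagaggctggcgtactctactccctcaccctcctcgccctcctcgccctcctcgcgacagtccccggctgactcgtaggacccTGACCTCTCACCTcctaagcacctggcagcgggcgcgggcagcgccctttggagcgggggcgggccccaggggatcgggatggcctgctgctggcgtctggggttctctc
Acot12 held a match with 1 differing letter, TGACCTCTCACCT on the opposite strand, from 110 to 98 bases before the start. A match that close was present in 0.484% of the 32851 promoters in the table. Acot4 held TGACCTTTGGCCG, with 2 differing letters, in the last 13 bases before its start (3.24% of promoters held a match at least as close). Acot2 held AGCACACAGCTCA with 3 (21.3%), and the best windows of Acot1, Acot3 and Acot8 differed at 4, 4 and 5 letters. Such a match describes letters in this window and is not a measured binding site. Aligned end to end, the 6 pairs of clustered genes shared 48.8% to 54.8% of the 250 bases, against 47.2% to 54.4% in the 9 pairs that involve Acot8 or Acot12.

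The deposited values were log2 expression values made with RMA. Array medians fell into 3 ranges, 6.46 to 6.65 in 129, 4.51 to 4.67 in B6J and B6N, and 3.10 to 3.28 in C3H, so levels were compared only within such a set and each diet effect is a difference within a strain. The 14 measured hepatocyte markers lay above the array median in every group. In whole liver, fewer cells of a type and less RNA per cell cannot be told apart. Arrays give no read depth, and their number limits the precision. All 7 thioesterase genes lay above the array medians in every group mean. The Acot3 mean was as close to the median as 0.08 in C3H controls, which leaves the size of its folds uncertain. Acot1 to Acot4 are close relatives, and signal shared between their probe sets was not tested.

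HFD raised 6 of the 7 genes when its effect was averaged over the 4 strains, and Acot13 was the exception. The gene with the largest mean change was the peroxisomal Acot4, at 1.45-fold (95% interval 1.26 to 1.67), followed by Acot3 at 1.37-fold (1.16 to 1.61) and the mitochondrial Acot2 at 1.36-fold (1.19 to 1.54). Acot1 rose 1.28-fold (1.14 to 1.44), Acot12 1.23-fold (1.14 to 1.32) and Acot8 1.2-fold (1.13 to 1.27). The small rises of Acot8 and Acot12 had the smallest errors and therefore the lowest adjusted p-values, 6.8e-06 and 3.5e-05 in limma, against 0.00021 for Acot4, 0.00093 for Acot2, 0.006 for Acot1 and 0.013 for Acot3. Of all genes, 2.02% were called higher in the mean effect, and the median log2 change was 0.36 over the 7 genes against 0.002 over all genes. A call is an adjusted p under 0.05 by limma with Benjamini-Hochberg adjustment over all 19938 genes. Shares of all genes are given for calls only, so counts at an unadjusted p below have no such background. All 6 calls held when any single array was left out, and with array weights, which give noisy arrays less influence, Acot3 was no longer called (adjusted p = 0.14).

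Strain by strain the calls came from B6N and C3H. In B6N the genes Acot2, Acot4 and Acot12 rose, against a background of 0.637% of genes called higher. In C3H Acot1, Acot2 and Acot8 rose, against 0.517%. Limma called 0 of the 7 in 129 (1 at an unadjusted p under 0.05), where 0.441% of all genes were called higher, and 0 in B6J (2 unadjusted), where 0.13% were. All 7 changes were positive in B6J, B6N and C3H, and 6 of 7 in 129. The median change of the 7 genes was 0.18, 0.19, 0.52 and 0.63 on the log2 scale (129, B6J, B6N, C3H), against 0.003, 0.005, -0.003 and 0.009 over all genes. For no member and in no strain did the HFD arrays separate fully from the controls.

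**Figure D1:**
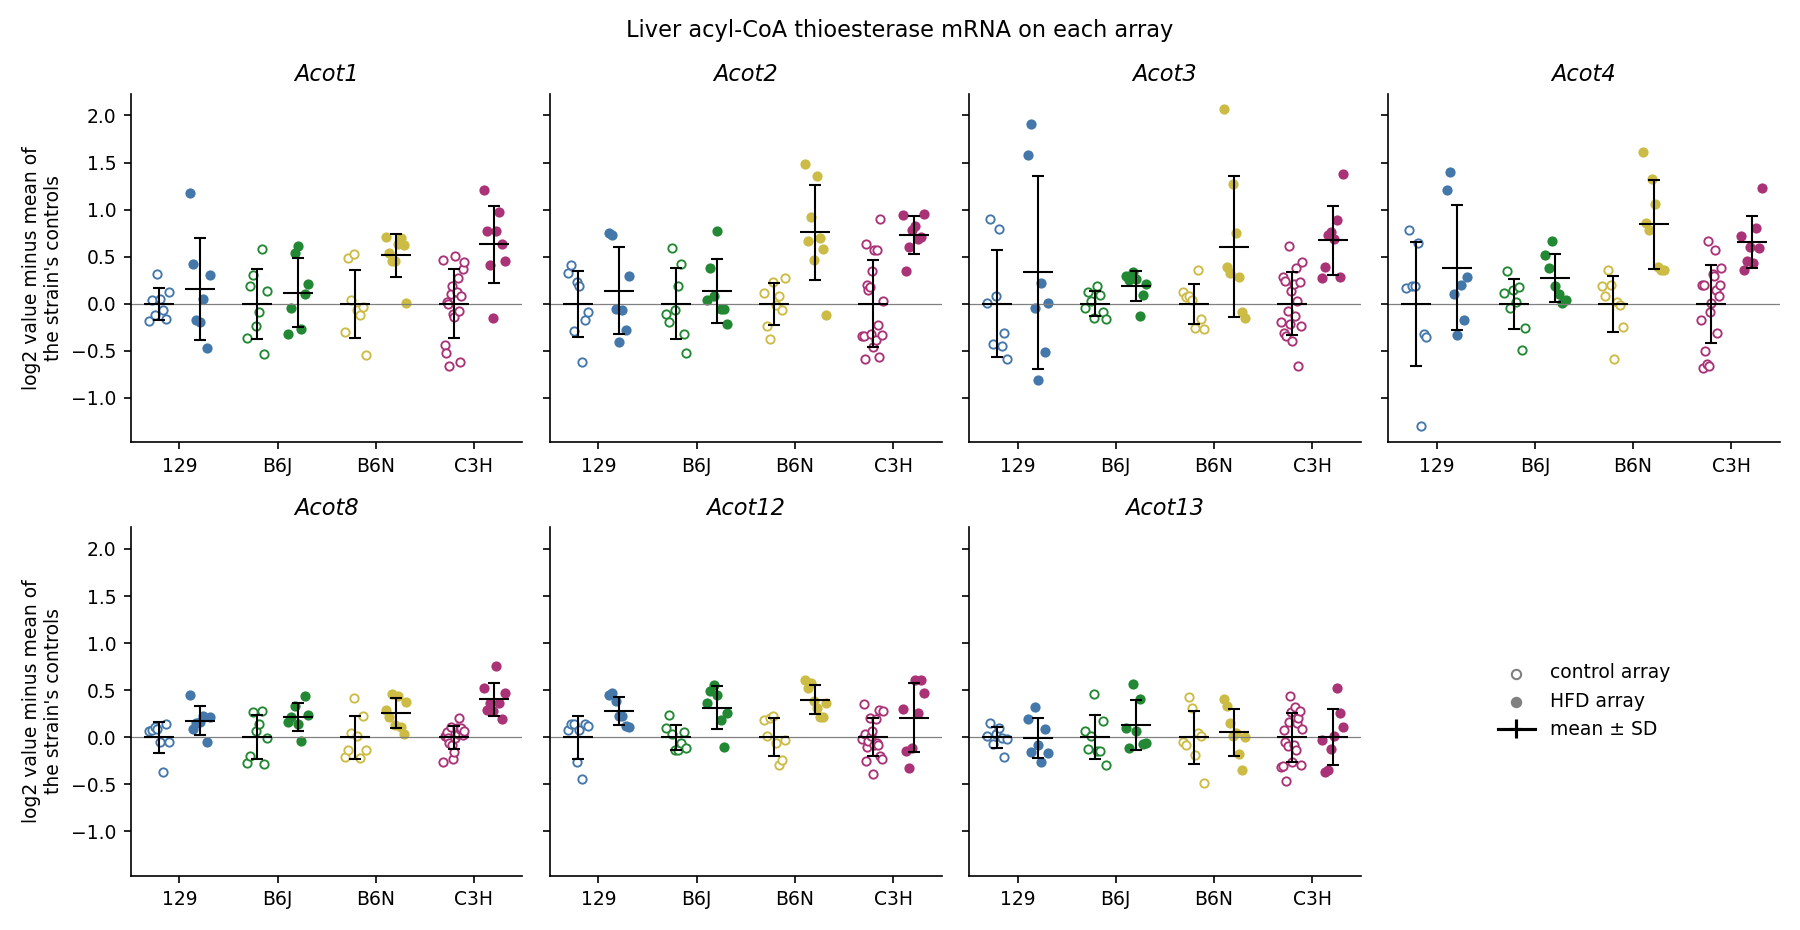
Deposited log2 value of each thioesterase gene on each of the 72 arrays, minus the mean of the same strain's controls (vertical axis), by strain (horizontal axis). Open points are control arrays, filled points HFD arrays, and bars give the mean ± SD. Acot1 to Acot4 lie mostly above 0 on HFD in B6N and C3H, a pair of 129 HFD arrays stand high for Acot3 and Acot4, and Acot13 stays around 0.

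Acot2, the mitochondrial enzyme, was the gene called in both B6N and C3H. In B6N its control arrays had a lowest, median and highest log2 value of 5.89, 6.31 and 6.54, and its HFD arrays 6.15, 6.95 and 7.75. All HFD arrays except replicate 8 lay above every control, and the rise was 1.69-fold (1.30 to 2.19; log2 0.76 ± 0.19 SE, n = 8 and 8, limma adjusted p = 0.023). In C3H the controls ran from 3.73 through 4.21 to 5.22 and the HFD arrays from 4.66 through 5.06 to 5.27. The HFD group there was narrow and sat in the upper part of a wide control range: 14 of 18 controls lay below every HFD array, while only 2 of 8 HFD arrays exceeded every control. The rise was 1.66-fold (1.33 to 2.08; log2 0.73 ± 0.16, limma adjusted p = 0.0049). The differences were 0.14 ± 0.20 in both 129 and B6J, with the groups overlapping over most of their range. The 129 HFD arrays of replicates 1 and 2, at 10.59 and 10.56, were the ones above all 129 controls (9.22 to 10.25). In B6J the controls spanned 5.85 to 6.97 around a median of 6.28 and the HFD arrays 6.16 to 7.15 around 6.41, and 1 of 7 HFD arrays exceeded every control.

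Acot1, the cytosolic enzyme, rose in C3H. Its C3H control values ran from 3.03 through a median of 3.75 to 4.20, and its HFD values from 3.54 through 4.39 to 4.90. Among the C3H HFD arrays 5 of 8 lay above every control, and the rise was 1.55-fold (1.26 to 1.90; log2 0.63 ± 0.15, limma adjusted p = 0.013). The call was lost without HFD replicate 1 (0.55, adjusted p = 0.083) and in a fit of the C3H arrays alone (adjusted p = 0.05). In B6N all 8 HFD arrays lay above the control mean, with controls from 5.84 through 6.33 to 6.92 and HFD arrays from 6.39 through 6.97 to 7.10. That difference, 0.52 ± 0.18, was not called (adjusted p = 0.26). Acot1 differed by 0.16 ± 0.18 in 129 and 0.12 ± 0.18 in B6J. The 129 HFD value of replicate 1, 7.90, stood above the other 6 (6.26 to 7.15). The 129 controls lay closer together, between 6.54 and 7.04, so the HFD group was the more scattered of the pair (SD 0.542 against 0.168). In B6J, controls of 5.70 to 6.81 and HFD arrays of 5.91 to 6.84 covered nearly the same range.

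Acot4, the peroxisomal enzyme of dicarboxylic acyl-CoAs, had the largest single rise in a strain. In B6N its controls ran from 6.79 through 7.42 to 7.73 and its HFD arrays from 7.73 through 8.19 to 8.98. All but 1 control lay below every HFD array, 6 of 8 HFD arrays lay above every control, and the rise was 1.79-fold (1.34 to 2.4; log2 0.84 ± 0.21, limma adjusted p = 0.023). In C3H, with controls from 4.98 through 5.78 to 6.33 and HFD arrays from 6.02 through 6.27 to 6.89, the difference of 0.65 ± 0.18 fell just short of a call (adjusted p = 0.054). All 8 C3H HFD arrays were above the control mean. The C3H value moved to either side of the threshold with the processing, for example 0.037 in a fit of C3H alone and 0.12 with each array centred on its median. The differences were 0.38 ± 0.22 in 129 and 0.27 ± 0.22 in B6J, uncalled (adjusted p = 1). The 129 value was 0.20 without control replicate 6, 0.25 without HFD replicate 1, 0.21 without HFD replicate 2 and 0.09 with array weights. In 129 the controls spanned 7.55 to 9.63 around a median of 9.03 and the HFD arrays 8.52 to 10.25 around 9.05, so the medians were nearly equal while the lowest and highest values differed more. In B6J all 7 HFD arrays (7.33 to 7.99, median 7.51) lay above the control mean of 7.33, and 3 lay above every control (6.83 to 7.67).

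Acot3, the peroxisomal long-chain enzyme, had the widest spread of the 7 genes in the HFD groups of 129 and B6N. In 129 the HFD arrays of replicates 1 and 2 read 8.32 and 8.65 and the other 5 from 5.93 to 6.96, against 6.15 to 7.64 in controls. In B6N the HFD array of replicate 1 read 7.11 and the other 7 from 4.89 to 6.32, against 4.78 to 5.40 in controls. With that spread its differences of 0.34 ± 0.25 in 129, 0.61 ± 0.24 in B6N and 0.67 ± 0.20 in C3H were not called (adjusted p = 1, 0.51 and 0.12). The 129 value was 0.13 without HFD replicate 1, 0.07 without HFD replicate 2 and 0.09 with array weights. In a fit of the C3H arrays alone the C3H value was called (adjusted p = 0.011). The C3H values, 2.59 through 3.22 to 3.86 in controls and 3.52 through 3.96 to 4.63 on HFD, had every HFD array above the control mean. In B6J the arrays lay close together, from 4.50 to 4.85 in controls and 4.53 to 5.0 on HFD, and 5 of 7 HFD arrays exceeded every control (0.19 ± 0.25, adjusted p = 1). The SE there comes from the spread shared by all groups, which is wider than that of the B6J arrays (SD 0.13 and 0.161). A fit of the B6J arrays alone had an SE of 0.082 and still gave no call (limma adjusted p = 0.6). For 129 arrays alone the SE was 0.364, wider than the shared one.

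Acot8, the broad peroxisomal enzyme, changed little but with little spread. In C3H its controls ran from 4.64 through 4.91 to 5.11 and its HFD arrays from 5.10 through 5.26 to 5.66. This was the closest approach to separate groups in C3H: 17 of 18 controls lay below every HFD array and 7 of 8 HFD arrays above every control. The rise was 1.32-fold (1.2 to 1.47; log2 0.40 ± 0.07, limma adjusted p = 0.00029), and it was called in every alternative setting run. The other strains had smaller differences of the same sign, 0.18 ± 0.09 in 129, 0.21 ± 0.09 in B6J and 0.25 ± 0.09 in B6N, none called (adjusted p = 0.94, 0.70 and 0.26). In 129, 5 of 7 HFD arrays (8.08 to 8.58) exceeded every control (7.76 to 8.27). In B6N all 8 HFD arrays (6.36 to 6.79, median 6.58) lay above the control mean of 6.33, while the highest control, 6.75, reached into their range. In B6J the HFD arrays spanned 6.15 to 6.63 and the controls 5.90 to 6.47, and 6 of 7 HFD arrays lay above the control mean.

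Acot12, the cytosolic acetyl-CoA enzyme, had differences between 0.21 and 0.40 in the 4 strains, and the call was in B6N. Its B6N controls ran from 9.30 through 9.59 to 9.82 and its HFD arrays from 9.81 through 9.97 to 10.20, so that 7 of 8 controls lay below every HFD array. The rise was 1.32-fold (1.14 to 1.53; log2 0.40 ± 0.11, limma adjusted p = 0.045). This call was marginal: it was lost in 11 of the 16 fits that left out 1 B6N array (adjusted p from 0.029 to 0.16 over the 16), namely control replicates 2, 5, 6, 7 and 8 and HFD replicates 1, 2, 3, 4, 5 and 8. It was also lost with median centring (0.11), with every probe set tested (0.073) and with robust trended moderation (0.059). In 129 all 7 HFD arrays (11.42 to 11.78) lay above the control mean, and 5 of them above every control (10.87 to 11.46), a difference of 0.28 ± 0.11 that was not called (adjusted p = 0.51). The differences were 0.31 ± 0.11 in B6J and 0.21 ± 0.09 in C3H (adjusted p = 0.49 and 0.50). In B6J 5 of 7 HFD arrays (9.51 to 10.17) exceeded every control (9.48 to 9.85). The C3H HFD arrays were the most scattered of the 8 groups for this gene (8.10 to 9.04, SD 0.365), and 5 of 8 lay above the control mean of 8.43.

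Acot13 gave no call in any strain or in the mean, which was 1.03-fold (0.95 to 1.12; limma adjusted p = 0.91). Its log2 differences were -0.01 ± 0.13 (129), 0.13 ± 0.13 (B6J), 0.05 ± 0.12 (B6N) and 0.01 ± 0.10 (C3H). In C3H the control arrays ran from 6.50 through 6.97 to 7.40 and the HFD arrays from 6.60 through 6.95 to 7.49, nearly the same range. The B6N controls, 7.71 to 8.62, enclosed all 8 HFD arrays, 7.84 to 8.60. The sign of these small differences turned in 129 and C3H when arrays were centred on their medians.

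Other measures moved with diet in the same livers. In B6N the mean level of 13 pancreatic acinar markers, digestive enzyme genes of the pancreas, was 1.34 higher on HFD, with 13 of 13 genes higher, 0 called by limma and 4 at an unadjusted p under 0.05. Relative to the array median, single controls had levels of 0.18 to 2.11 and single HFD livers levels of 0.37 to 3.66. With this level as a covariate Acot12 was called (adjusted p = 0.035), and Acot2 (0.68, adjusted p = 0.43) and Acot4 (0.98, adjusted p = 0.062) were not. The SE was wider in that fit, 0.236 against 0.19 for Acot2 and 0.253 against 0.211 for Acot4. Calls over all 19938 genes in B6N, in either direction, fell as well, from 183 in the main fit to 78. Elsewhere the acinar difference was 0.65 (129), 0.35 (B6J) and -0.29 (C3H). Adipocyte markers were 0.26 higher on HFD in B6N (1 of 7 called). Macrophage markers were 0.52 higher in 129 (6 of 15 called), where no thioesterase was called, and 0.26, 0.06 and 0.03 higher in B6J, B6N and C3H (0 of 15 called by limma in each, with 6, 0 and 1 at an unadjusted p under 0.05). In the mean effect, where 6 of the 7 thioesterases rose, 6 of 15 macrophage markers were called higher (median 0.21), 0 of 13 acinar markers were called by limma (0 unadjusted; median 0.49), and 2 of 14 hepatocyte markers were called lower (median -0.04). In C3H the mean of the hepatocyte markers was different by -0.15 on HFD, with 1 of 14 called lower. The part of these markers in the thioesterase changes was not tested beyond the acinar covariate. The B6N calls for Acot2, Acot4 and Acot12 all ended without HFD replicate 1 or without HFD replicate 5, which left 0 of 7 called. Leaving out control replicate 2, control replicate 3 or HFD replicate 3 also ended the Acot2 call, and leaving out control replicate 5, control replicate 8 or HFD replicate 4 the Acot4 call (highest adjusted p = 0.11 for each). The B6 arrays can be split from the data into 2 parts by the sign of their first residual component, the main pattern of variation left within groups. In every B6 group the lower replicate numbers fell in part A and the higher ones in part B. What that order reflects was not tested. Inside these parts, with 3 and 5 HFD arrays and 4 controls in each, the B6N differences for Acot2 were 1.09 and 0.53 (limma adjusted p = 0.034 and 0.58). For Acot4 they were 0.87 and 0.90 (0.025 and 0.027), and for Acot12 0.41 and 0.45 (0.18 and 0.023). Of all 19938 genes, 67 and 150 were called there in either direction. Because the parts were drawn from the residuals of these same arrays, the p-values inside them are a description and no independent evidence. With array weights the C3H calls for Acot1 (adjusted p = 0.13) and Acot2 (0.25) ended, leaving Acot8.

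**Figure D2:**
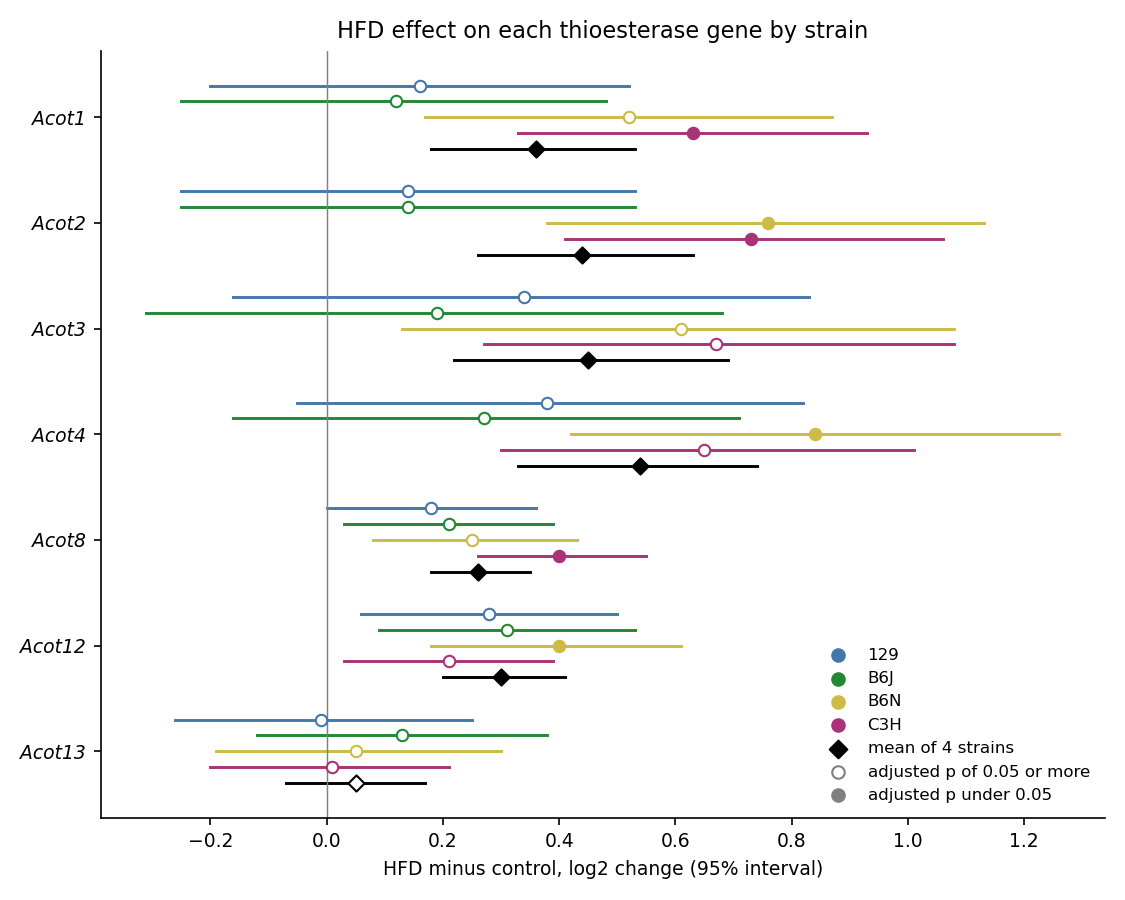
HFD minus control as a log2 change with its 95% interval (horizontal axis) for each gene (vertical axis), by strain (circles) and as the mean of the 4 strains (black diamonds). Filled symbols passed an adjusted p under 0.05. The mean effect is filled for the 6 genes other than Acot13, and in Acot1 and Acot2 the B6N and C3H points lie to the right of those of 129 and B6J, with overlapping intervals.

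The question whether the strains differed in these responses was tested directly. The limma F test for any strain difference in the HFD effect called 0 of the 7 genes, with 1, Acot2, at an unadjusted p under 0.05, while 0.125% of all genes were called. The 42 pairwise differences between strains, 6 for each gene, gave 0 calls, 5 at an unadjusted p under 0.05 and a lowest adjusted p of 0.89. Calls were rare there over all 19938 genes too, from 0 (B6N against B6J) to 12 (C3H against 129) in a comparison. The HFD effect on Acot2 was 0.62 ± 0.27 larger in B6N than in B6J (95% interval 0.07 to 1.16) and 0.62 ± 0.27 larger than in 129 (0.07 to 1.16), both with an adjusted p of 1 by limma. In C3H the Acot2 effect was 0.60 ± 0.25 larger than in B6J (0.09 to 1.1) and 0.59 ± 0.25 larger than in 129 (0.09 to 1.1). The Acot1 effect was 0.51 ± 0.24 larger in C3H than in B6J (0.04 to 0.98). A larger rise in B6N and C3H than in 129 and B6J was therefore not established for any of the 7 genes, and the width of those intervals shows how large a difference these arrays could miss.

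B6N and B6J, related substrains on arrays of 1 set, could also be compared by level. Among controls 0 of the 7 genes were called by limma (0 also at an unadjusted p under 0.05), against 0.0351% of all genes. Acot3 had the largest control difference, 0.38 ± 0.24 higher in B6N (4.78 to 5.40 against 4.50 to 4.85; adjusted p = 0.77), and the others lay between -0.10 (Acot2) and 0.15 (Acot1). On HFD all 7 genes were higher in B6N, and limma called 0 of them, against 0.191% of all genes. At an unadjusted p under 0.05 there were 5, a count with no share over all genes beside it. Acot3 was 0.80 ± 0.25 higher (adjusted p = 0.30), Acot4 0.62 ± 0.22 (0.49), Acot1 0.55 ± 0.18 (0.40), Acot2 0.52 ± 0.20 (0.58) and Acot8 0.19 ± 0.09 (0.80). All 8 B6N HFD arrays lay above the B6J HFD mean for Acot1, Acot3 and Acot4. The number of calls in this comparison depended on the fit. With the part of the B6 arrays as a block, Acot3 (0.86 higher, limma adjusted p = 0.028) and Acot4 (0.74, adjusted p = 0.0065) were called. The HFD arrays were spread unevenly over the parts, with 3 in A and 5 in B for B6N, and 5 in A and 2 in B for B6J. The parts were drawn from the residuals of these same arrays, so these p-values are a description and no independent evidence. With array weights Acot1 was called (limma adjusted p = 0.048). Calls over all 19938 genes rose as well, from 38 in the main fit to 84 with the block and 347 with array weights.

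Within groups, the levels of some thioesterase genes varied together between mice, most closely those of Acot3 and Acot4. How far signal shared between the probe sets of the close relatives Acot1 to Acot4 adds to this was not tested. Of the 21 pairs of genes, 13 had a permutation p under 0.05 for r after adjustment over the pairs, 11 of them for Spearman's rho as well, and 8 did not. The share over pairs of other genes is not given, so these counts have no background. Deviations from group means over the 72 arrays gave r = 0.80 for Acot3 with Acot4 (Spearman's rho 0.78; two-sided permutation p = 1e-05, the smallest that 100000 permutations within groups can give; 0.00011 adjusted over 21 pairs). The same relation held in each strain, with r of 0.87 (129), 0.55 (B6J), 0.87 (B6N) and 0.69 (C3H), and was 0.77 without the 2 arrays farthest from the median of Acot3. The high Acot3 arrays named above, replicates 1 and 2 of 129 HFD and replicate 1 of B6N HFD, were also high in Acot4. Acot2 followed Acot3 (r = 0.61, rho 0.57, permutation p = 1e-05, adjusted 0.00011; 0.60 without 2 arrays) and Acot4 (r = 0.53, rho 0.46, permutation p = 5e-05, adjusted 0.00035; 0.54). Acot1 was tied less closely to these, with r = 0.41 to Acot2 (rho 0.35, permutation p = 0.00058, adjusted 0.002; 0.39 without 2 arrays), 0.41 to Acot4 (rho 0.38, 0.00031, adjusted 0.0016; 0.38) and 0.37 to Acot3 (rho 0.29, 0.00305, adjusted 0.008; 0.31). Within strains the Acot1 values were highest in 129 (0.72 to Acot2, 0.59 to Acot4, 0.70 to Acot3) and the lowest in any strain were 0.26, 0.28 and 0.12.

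Outside the cluster, Acot12 followed Acot4 (r = 0.39, rho 0.38, permutation p = 0.00042, adjusted 0.0018; 0.31 without 2 arrays) and Acot13 (r = 0.39, rho 0.41, permutation p = 0.00154, adjusted 0.0046; 0.38). The second of these fell to 0.11 once the first residual component of each strain was removed, while Acot12 with Acot4 stayed at 0.37 and Acot3 with Acot4 at 0.81. That component is the main pattern shared by many genes across arrays of a group and held 26.94% to 33.28% of the residual variance by strain. Acot3 with Acot12 was at 0.26 (rho 0.24, permutation p = 0.0158, adjusted 0.028; 0.21 without 2 arrays). Acot13 also followed Acot4 weakly (r = 0.25, rho 0.28, permutation p = 0.0267, adjusted 0.043; 0.30 without 2 arrays), with 0.70 in B6N and 0.11 to 0.22 in the other strains, and had r = 0.07 with Acot1 (permutation p = 0.595, adjusted 0.59) and 0.08 with Acot2 (permutation p = 0.524, adjusted 0.55). Acot8 followed Acot1 (r = 0.33, rho 0.26, permutation p = 0.00666, adjusted 0.016; 0.27), Acot2 (r = 0.30, rho 0.29, permutation p = 0.00942, adjusted 0.018; 0.33) and Acot4 (r = 0.30, rho 0.29, permutation p = 0.00841, adjusted 0.018; 0.26). It had r = 0.17 with Acot3, 0.22 with Acot12 and 0.14 with Acot13 (adjusted permutation p = 0.19, 0.12 and 0.31). With the component removed, Acot8 had r of 0.28 with Acot1, 0.25 with Acot2 and 0.17 with Acot4. Acot13 with Acot4 was then 0.32 and Acot3 with Acot12 0.23. Acot2 had 0.58 with Acot3 and 0.44 with Acot4, and Acot1 had 0.37, 0.32 and 0.37 with Acot2, Acot3 and Acot4. Which arrays shared a hybridisation or a normalisation is not given. The part of either in these correlations was not tested beyond the removal of that component.

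**Figure D3:**
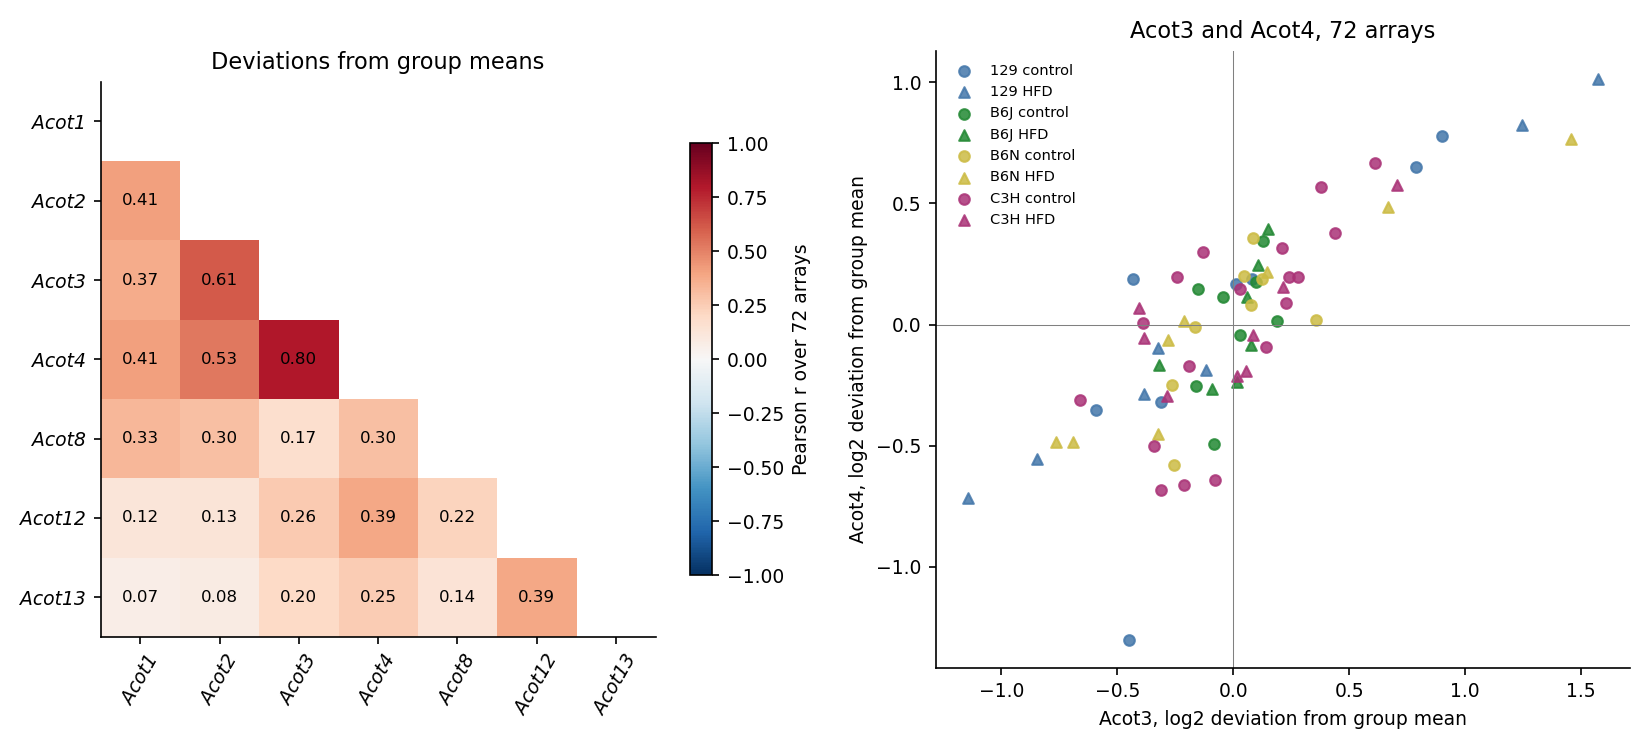
Left, Pearson r between each pair of thioesterase genes over deviations from group means on 72 arrays (both axes list genes, colour and number give r). Right, the deviations of Acot4 (vertical axis, log2) against Acot3 (horizontal axis, log2), 1 point per array, coloured by strain, circles for controls and triangles for HFD. The pair Acot3 and Acot4 has the highest r, 0.80, with points from all 4 strains along the same slope and 1 low 129 control.

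Among all 19938 genes, those with the most similar deviations differed from member to member, given here as a description. For Acot1 they were Cyp4a14 (r = 0.56) and Cyp4a10 (0.50), P450 enzymes that hydroxylate fatty acids, and S1pr3, a receptor of sphingosine phosphate (0.53). For Acot2 they were Lpcat3, a lysophospholipid acyltransferase (0.65), Aldh3a2, a fatty aldehyde dehydrogenase (0.64), and Entpd5, a nucleotide phosphatase (0.64). For Acot3 the top gene was Acot4 and for Acot4 it was Acot3 (0.80 each). They were followed by Akr1c19, an aldo-keto reductase, and Wee1, a cell cycle kinase (0.65 each), for Acot3, and by Fam169b (0.68) and the carrier Slc16a5 (0.67) for Acot4. Akr1c19 fell on HFD in the mean effect (-0.78, limma adjusted p = 1.3e-08), and its r with Acot3 within groups was 0.81 (129), -0.02 (B6J), 0.80 (B6N) and 0.45 (C3H). Acot8 was nearest to D630029K05Rik and the lipid droplet gene Plin3 (0.55 each) and to Vps16, of vesicle transport (0.51). Acot12 was nearest to Pik3ca (0.82), a lipid kinase subunit, Rufy3 (0.81) and Acadm (0.81), the mitochondrial medium-chain acyl-CoA dehydrogenase. Acot13 was nearest to the cold-inducible RNA binding gene Rbm3 (0.83), Crbn and Ssbp1 (0.81 each). Some of these were low in a single strain: Ssbp1 with Acot13 was 0.21 in 129. Vps16 with Acot8 was 0.2 and Wee1 with Acot3 0.21 in B6J. Others held in each strain, such as Pik3ca with Acot12, from 0.77 (B6J) to 0.88 (C3H). The first residual component was not removed for these values.

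The rest of acyl-CoA metabolism gives the setting of these rises. Of 13 other thioesterases and related hydrolases and acyltransferases, limma called 0 in the mean effect (3 at an unadjusted p under 0.05), with a median change of 0.05. Acot5 and Acot6, relatives from the same cluster, had mean changes of -0.04 ± 0.04 and 0.01 ± 0.05 (adjusted p = 0.88 and 0.99). The largest value of that list was 0.36 ± 0.13 for Acnat2, a peroxisomal acyltransferase (adjusted p = 0.13). Of the 20 measured genes of mitochondrial fatty acid oxidation 14 rose and 0 fell, with a median of 0.26, and of 22 peroxisomal genes 11 rose and 2 fell, with a median of 0.19. Of 24 PPAR regulators and targets 15 rose and 0 fell, with a median of 0.47. These last 3 lists had 13, 7 and 11 members higher in B6N and 7, 8 and 10 in C3H, against 1, 3 and 4 in 129 and 1, 2 and 4 in B6J. Of all genes, 0.637% (B6N), 0.517% (C3H), 0.441% (129) and 0.13% (B6J) were called higher. No test compared the strains over these lists. The lists overlap, with Cpt1a and Pex11a among the genes in both the PPAR list and an oxidation list.

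Genes that supply the substrate or handle the products of thioesterases differed among themselves. Over all 19938 genes, 630 were called in the mean effect, 403 of them higher and the rest lower. Of 21 acyl-CoA synthetases, which run the opposite reaction, 1 rose and 2 fell in the mean effect. Slc27a2, a very long-chain synthetase and transporter, rose (0.33 ± 0.05, adjusted p = 2e-07), while Acss2, which makes acetyl-CoA from acetate, the reverse of the Acot12 reaction, fell (-0.45 ± 0.09, adjusted p = 0.00039), as did Acsm1, a medium-chain synthetase (-0.17 ± 0.05, adjusted p = 0.036). Of 16 genes of CoA synthesis and breakdown 4 rose and 1 fell: Pank1, a pantothenate kinase at the first step of CoA synthesis, rose (0.29 ± 0.05, adjusted p = 1.3e-05), and Nudt7, a peroxisomal CoA diphosphatase, fell (-0.22 ± 0.05, adjusted p = 0.006). Vnn1, a pantetheinase, had the largest change of that list (2.03 ± 0.12) and was called in all 4 strains. Of 8 acyl-CoA binding genes 1 rose. In the lists of oxidation, Cpt1a, which makes acylcarnitine for entry into mitochondria, rose in the mean (0.69 ± 0.10), Crat, carnitine acetyltransferase, by 0.62 ± 0.09, and Abcd2, a peroxisomal importer of very long-chain acyl-CoAs, by 1.34 ± 0.15. The thioesterase median of 0.36 thus lay between those of the mitochondrial oxidation list and the PPAR list, as a description of these chosen lists.

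**Figure D4:**
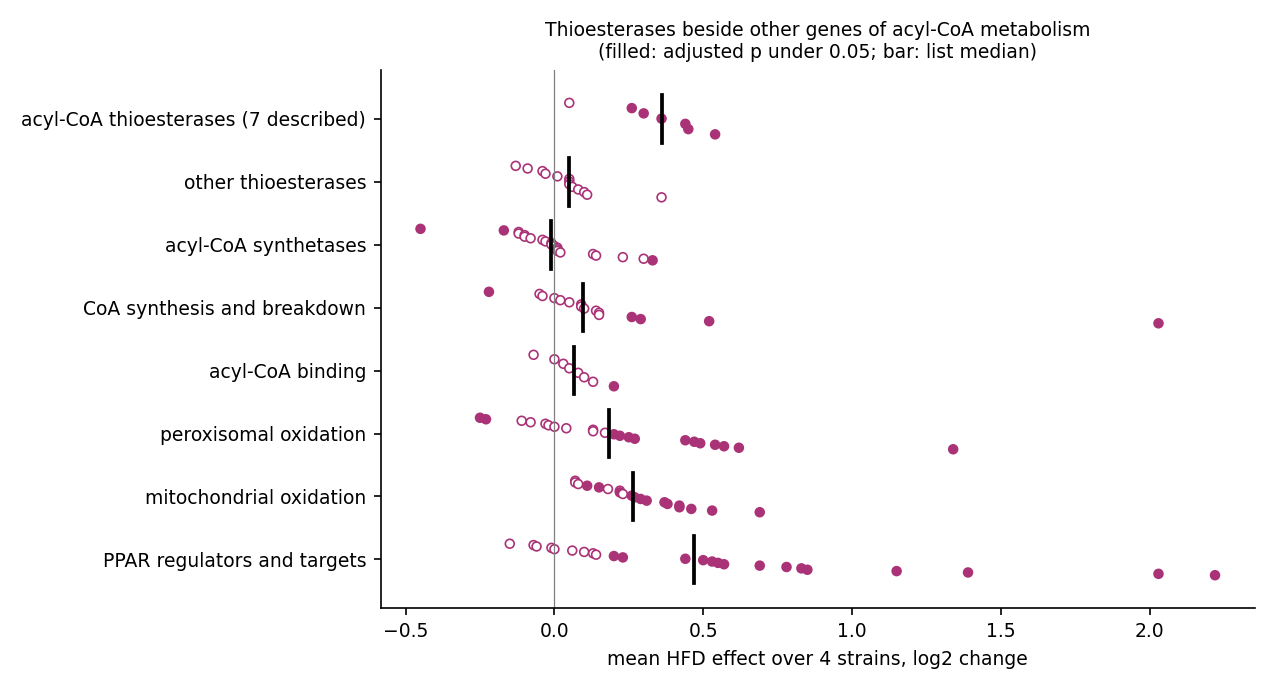
Mean HFD effect over the 4 strains as a log2 change (horizontal axis) for each gene of 8 lists (vertical axis). Each point is a gene, filled where the adjusted p was under 0.05, and the bar is the list median. The 7 thioesterases described have 6 filled points and a median of 0.36, and the 13 other thioesterases and relatives have none filled and a median of 0.05.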

How the data were processed

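The deposited table held log2 values of 35556 probe sets on 72 arrays, which the authors made with RMA (Affymetrix Expression Console 1.1 in the submitters' processing notes, per the labels). Which arrays shared a normalisation is not given in the sources used here. Platform annotation gave 1 symbol to 21789 probe sets, several to 1621, and did not list 12146. The probe set with the highest mean was kept for each of 19938 genes. The linear model, run with limma 3.58.1 in R 4.3.3, had a mean for each of the 8 groups and 64 residual degrees of freedom. Tests were two-sided at 0.05 after Benjamini-Hochberg adjustment over every gene tested. The fit was run on simulated data with independent normal noise for each gene. That run did not test its error rates under variation shared between genes. Deviations from group means of B6N control and HFD arrays with equal replicate numbers correlated at 0.101 to 0.462, over 0.1 in 8 of 8 pairs. Only 2 of these 8 HFD arrays correlated best with the control of their own number. Pairing by replicate number was therefore not established there or in the other comparisons. Correlations used scipy 1.17.1 (Python 3.11.15) with 100000 permutations within groups. The members, the gene lists, the tests and the alternatives were chosen with earlier results of these data known. Named genes were all members, up to 5 genes per list called in at least 1 strain, by size of mean effect, and the 3 genes most like each member; Acot5, Acot6 and Acnat2 were named after their values were seen. Promoters came from RefSeq (GRCm38.p6).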

Additional observations from a re-analysis of the deposited data

Results flagged for a closer look

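Of 49 combinations of a gene and a group of 4 to 10 arrays, 2 held an array far from the others, and chance alone flags about 5% of such groups. Acot1 in B6N HFD replicate 8 read 6.39, with the nearest of the other 7 arrays at 6.84, a gap of 0.626 of the group's range. The same array had the lowest Acot2 and Acot3 of its group. Acot8 in 129 control replicate 6 read 7.76, with the nearest at 8.08, a gap of 0.638 of the range. The same array also had the lowest Acot2 and Acot4 of the 129 controls, 9.22 and 7.55.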

How the results depend on the processing

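Counts of called genes stayed within 1.5 times the reported ones in the 10 whole-array alternatives, except where named here. In B6N, with the acinar level as a covariate, 1 gene was called in place of 3, while calls over all 19938 genes went from 183 to 78. Leaving out single B6N arrays gave 0 to 3. In C3H, array weights left 1. In B6N against B6J on HFD, where 0 were called, the replicate block gave 2 (Acot3 and Acot4, limma adjusted p = 0.017 and 0.009). Array weights gave 1 (Acot1) and the part of the B6 arrays as a block 2. Over all 19938 genes these fits called 77, 347 and 84, in that order, against 38 in the main fit. The parts, the signs of the B6 arrays' first residual component, were chosen after seeing the data. Outside the block comparison named here, the replicate block called 4 genes in C3H (Acot4 added, adjusted p = 0.009). In B6N, where every pair of control and HFD arrays of equal number correlated over 0.1, the block kept the calls for Acot2, Acot4 and Acot12. Elsewhere 1 or more pairs of equal number did not exceed a correlation of 0.1: deviations correlated from -0.22 to 0.296 in 129, -0.294 to 0.5 in B6J and -0.271 to 0.185 in C3H, with 6 of 7, 5 of 7 and 1 of 8 over 0.1. Between B6N and B6J they correlated from 0.0547 to 0.379 in controls (6 of 8) and -0.381 to 0.413 on HFD (4 of 7). No comparison had every array correlate best with its own number.

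Uncalled differences that changed sign were small, and the cause was not tested. With array weights, Acot2 in 129 was -0.08, Acot13 in C3H -0.04 and Acot12 in B6N against B6J on HFD -0.01. With median centring Acot13 was 0.01 in 129 and -0.02 in C3H, and with the acinar covariate 0.01 and -0.01. Acot2 in B6J was -0.08 within part B. For B6N against B6J controls, Acot1, Acot2 and Acot4 were -0.06, 0.02 and -0.02 within part B, Acot12 was 0.08 within part A and 0.02 after quantile normalisation, and Acot4 was -0.03 with the acinar covariate. Leaving out single arrays, Acot1 in 129 ran from -0.01 to 0.26, and Acot13 from -0.06 to 0.04 in 129, -0.02 to 0.11 in B6N and -0.07 to 0.06 in C3H. In B6N against B6J controls Acot4 ran from -0.02 to 0.13 and Acot12 from -0.05 to 0.02, and on HFD Acot12 from 0.00 to 0.11 and Acot13 from -0.01 to 0.12. The planned use of a member's other probe sets was not run, since each had 1.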

Other observations

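Because the array medians fell into 3 ranges, read here as 3 sets that may have been normalised separately, levels of 129, C3H and the B6 strains were not tested against each other. As values only, the mean distance of Acot1 from the array median in controls was 0.22 in 129, 1.68 (B6J), 1.8 (B6N) and 0.52 in C3H. For Acot2 it was 3.33 in 129, 1.82 (B6J), 1.69 (B6N) and 1.14 in C3H. For Acot13 the 4 control means lay between 3.52 and 3.79, and for Acot12 between 4.81 and 5.25. The scales of the sets may differ, and their part in these distances was not tested.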
